A study of Mus musculus with 12 samples.

Results

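The genes described here are 42 lysosomal genes, 39 that encode enzymes or other proteins of the lysosome and 3 that encode regulators of the pathway (Tfeb, Tfe3 and Sqstm1). They were taken by symbol from a list, out of 52636 genes in the count files. The list uses no measured value as a criterion, but it was drawn up with earlier results of these data known. All 42 were found, and all 42 were among the 17970 genes that passed the filter on low counts. RNA was sequenced from 12 bulk tumors, 3 in each of 4 groups. The tumors came from 2153L, a single mammary tumor line from a genetically engineered mouse, labelled as a model of triple-negative breast cancer, and grew in the fat pad of female BALB/c hosts. A pair of groups carried an empty vector (EV), and the other pair carried p53ERTAM, a tamoxifen-inducible form of the tumor suppressor p53. Within each pair, one group received vehicle and the other the combination (combo) of ORIN1001, which inhibits the RNase of the stress sensor IRE1α, at 150 mg/kg daily and docetaxel, a microtubule drug, at 20 mg/kg weekly, over 8 days. The labels name no promoter for the vectors, do not say which mice received tamoxifen, and do not say whether the 3 tumors of a group came from separate mice. The p-values therefore measure the spread between these tumors.

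Lysosomes are acidic compartments in which proteins, glycans, sulfated sugars and lipids are broken down. Most of their soluble enzymes are tagged with mannose 6-phosphate in the Golgi and delivered by sorting receptors, while a proton pump, the V-ATPase, keeps the lumen acidic and heavily glycosylated membrane proteins such as LAMP1 and LAMP2 line the wall. Transcription of many lysosomal genes is driven by TFEB and TFE3, which enter the nucleus when nutrients are short or lysosomes are stressed and bind E-box letters near the start of their targets. In tumors both the cancer cells and the infiltrating cells express these genes, and macrophages, which digest what they engulf, are especially rich in them.

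Promoter sequence was available from RefSeq (GRCm38.p6) for 38 of the 42 genes, as windows from 250 bases before to 50 bases after the start of transcription. The E-box letters CACGTG, which read the same on both strands, stood in the window of 12 of these 38 genes (31.6%), against 8.09% of 27025 genes with a window. The 12 were Arsa, Ctsa, Ctsd, Ctsl, Gaa, Gla, Glb1, Lamp1, Lgmn, Mcoln1, Naglu and Sgsh. A longer form searched on both strands, TCACGTGAC, which contains the shorter one, stood in 4 of 38 (10.5%: Ctsa, Ctsd, Gla and Mcoln1) against 0.895% of genes. The 250 bases before the start of 3 genes are shown 5′ to 3′ because these genes hold more than 1 copy and did not move in 1 direction under the drugs: Lamp1 and Ctsd fell in EV tumors while Mcoln1 rose. Capitals mark CACGTG. Lamp1 is at chr8:13158911-13159160 on the plus strand, Ctsd at chr7:142387828-142388077 on the minus strand and Mcoln1 at chr8:3500269-3500518 on the plus strand.
Lamp1: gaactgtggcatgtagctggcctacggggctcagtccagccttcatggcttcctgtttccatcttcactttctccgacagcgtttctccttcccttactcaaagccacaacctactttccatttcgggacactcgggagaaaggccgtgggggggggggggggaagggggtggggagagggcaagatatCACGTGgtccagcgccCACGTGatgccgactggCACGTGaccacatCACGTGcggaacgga
Ctsd: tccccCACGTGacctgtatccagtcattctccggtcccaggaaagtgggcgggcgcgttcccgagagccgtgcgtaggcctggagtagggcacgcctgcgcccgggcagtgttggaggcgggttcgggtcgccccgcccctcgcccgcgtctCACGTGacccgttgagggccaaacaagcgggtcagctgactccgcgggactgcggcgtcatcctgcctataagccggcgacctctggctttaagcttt
Mcoln1: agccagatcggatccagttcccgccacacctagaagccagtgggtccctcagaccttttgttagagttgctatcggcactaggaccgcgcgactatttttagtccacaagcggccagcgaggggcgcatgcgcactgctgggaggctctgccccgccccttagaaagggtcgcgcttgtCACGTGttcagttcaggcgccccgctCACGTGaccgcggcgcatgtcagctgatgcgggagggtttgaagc
The 4 copies before Lamp1 begin 61, 45, 28 and 15 bases before the start, the 2 before Mcoln1 at 71 and 45 bases, and the 2 before Ctsd at 245 and 98 bases. A match describes letters in this window and not a bound factor. The plot of E-box positions places the copies of all 12 genes in the window.

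**Figure D1:**
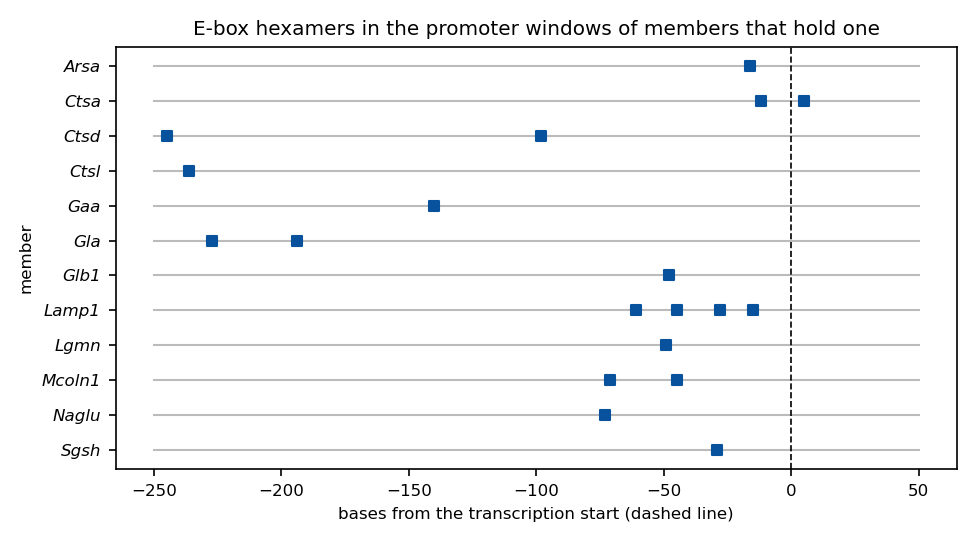
Position of the letters CACGTG (squares) in the 300-base RefSeq promoter windows of the 12 lysosomal genes that hold them, in bases from the start of transcription (dashed line). Lamp1 holds 4 copies within 61 bases of its start.

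Library totals lay between 20431888 and 23188928 counts for EV vehicle, 14433361 and 17601245 for EV combo, 13484873 and 19461986 for p53ERTAM vehicle, and 21914913 and 24424964 for p53ERTAM combo. The lowest count of any of the 42 genes in a library was 43 (Ctsk), and 40 of 42 had at least 100 counts in every library. The 3 EV combo libraries stood apart in RNA make-up: the noncoding gene Gm26917 took 10.7 to 11.1% of their counts against 0.133 to 1.10% in the other libraries. Protein-coding genes took 80.9 to 81.7% of their counts, against 86.7 to 95.8% in the others. The noncoding gene Xist took 1.01 to 1.15% against 0.0776 to 0.487%, and mitochondrial genes 0.703 to 0.957% against 1.43 to 2.16%. As a check of the labels, Cdkn1a, a direct p53 target, was at 22.3 to 53.9 CPM (counts scaled to the size of the library after TMM) in the 6 EV libraries and at 92.2 to 199.6 in the 6 p53ERTAM libraries. Esr1 was at 5.31 to 12.4 CPM in EV and 29.3 to 38.9 in p53ERTAM libraries. Trp53 overlapped between the vectors, at 39.8 to 55.0 CPM in EV and 48.4 to 65.0 in p53ERTAM libraries. The tumors carried epithelial RNA in every library (7 markers summing to 1979 to 5415 TPM, transcripts scaled per length and library). EV vehicle replicate 2 stood apart by RNA of B and plasma cells (6 markers summing to 263 TPM against 2.29 and 4.78 in the other EV vehicle libraries). Replicate 2 of p53ERTAM vehicle stood apart from replicates 1 and 3 by the sum of 8 fibroblast markers (1302 TPM against 609.9 and 613). Collagen genes carried the excess, led by Col1a1 (928 TPM against 385 and 365). Pdgfra (7.68 against 10.2 and 10.3) and Fap (2.21 against 3.21 and 2.73) were lower in this library. It also had a lower share of counts in protein-coding genes (86.7% against 92.3 and 94.0%) and the lowest lysosomal sum of its group.

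Compared per length, Psap (mean 1326 TPM over the 12 libraries), Lamp1 (821), Ctsd (761), Ctsb (534) and Ctsz (431) had the highest levels, and these 5 genes made up 59.6% of the summed TPM of the 42. The lowest were Galc (1.98), Idua (8.61) and Ctsk (12). Summed CPM of the 42 genes was 7089, 7048 and 6529 in EV vehicle, 5140, 4867 and 4610 in EV combo, 6243, 5694 and 7876 in p53ERTAM vehicle, and 9937, 9309 and 10542 in p53ERTAM combo. On the CPM scale EV combo was the lowest group and p53ERTAM combo the highest, and neither overlapped another group, while the vehicle groups of both vectors overlapped. The ratio of group means was 0.707 for combo over vehicle in EV tumors and 1.5 in p53ERTAM tumors. On the TPM scale these ratios were 0.774 and 1.66, and with TPM taken within protein-coding genes alone 0.923 and 1.42. Within protein-coding genes EV combo (6972 to 7323) overlapped EV vehicle (7242 to 8000), while p53ERTAM combo (11964 to 12922) stayed above every other library. The EV ratio by role then ran from 0.777 for membrane proteins to 1.14 for regulators. On the TPM scale EV combo (4589 to 4895) overlapped p53ERTAM vehicle (4293 to 7014). The p53ERTAM over EV ratio was 0.959 under vehicle by CPM, with its direction turned to 1.13 within protein-coding genes, and 2.04 under combo.

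**Figure D2:**
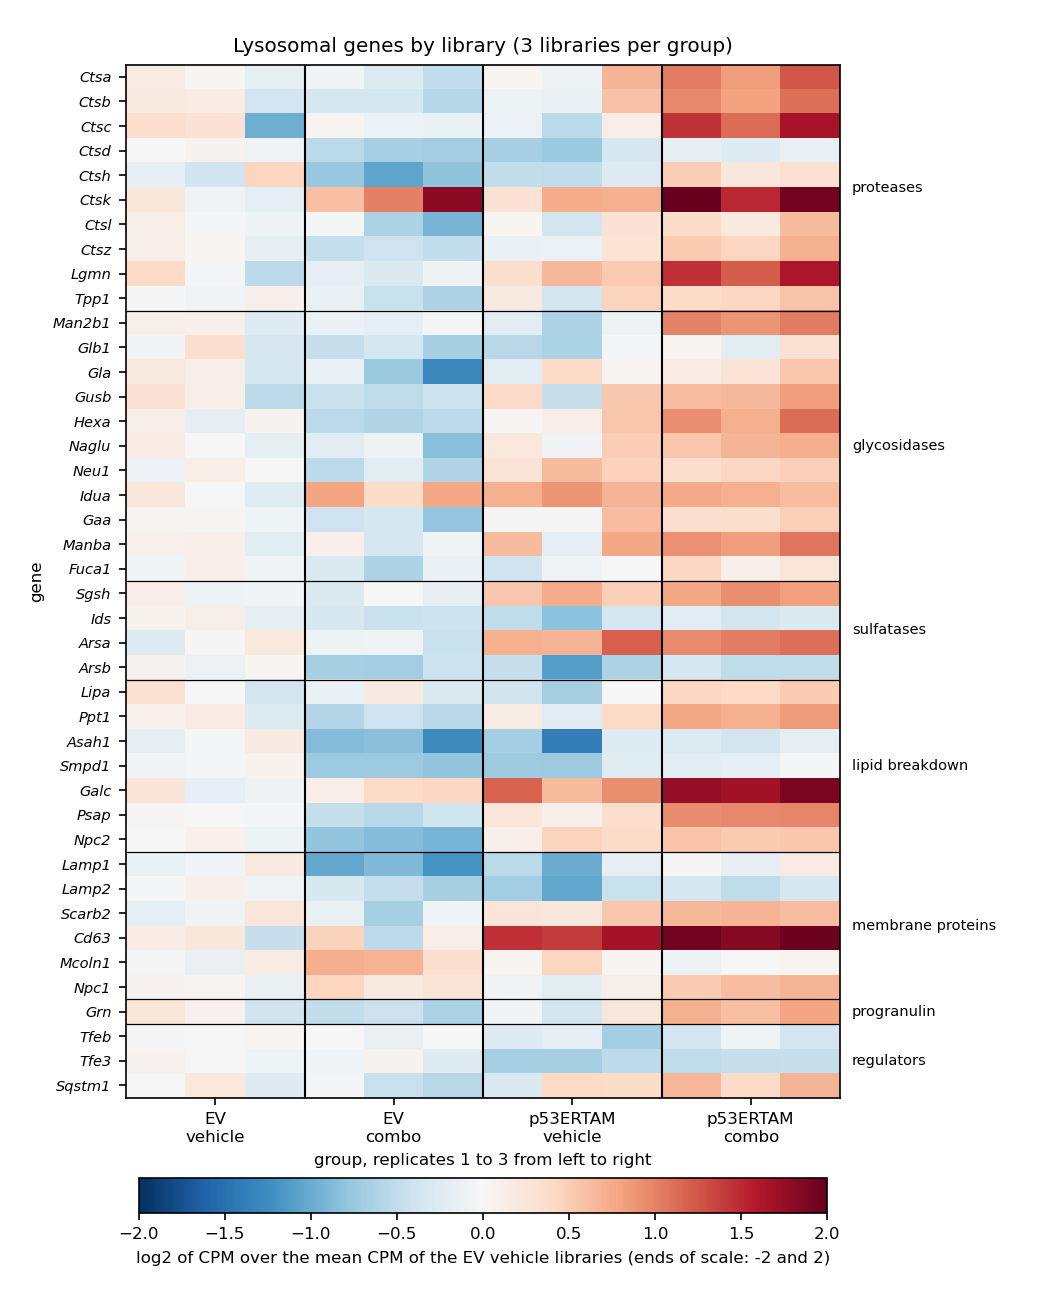
CPM of each of the 42 genes (rows, grouped by role) in each of the 12 libraries (columns), as log2 over the mean of the 3 EV vehicle libraries. The p53ERTAM combo columns are mostly red (higher) and the EV combo columns mostly blue (lower), with Mcoln1, Ctsk and Idua red in EV combo.

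**Figure D3:**
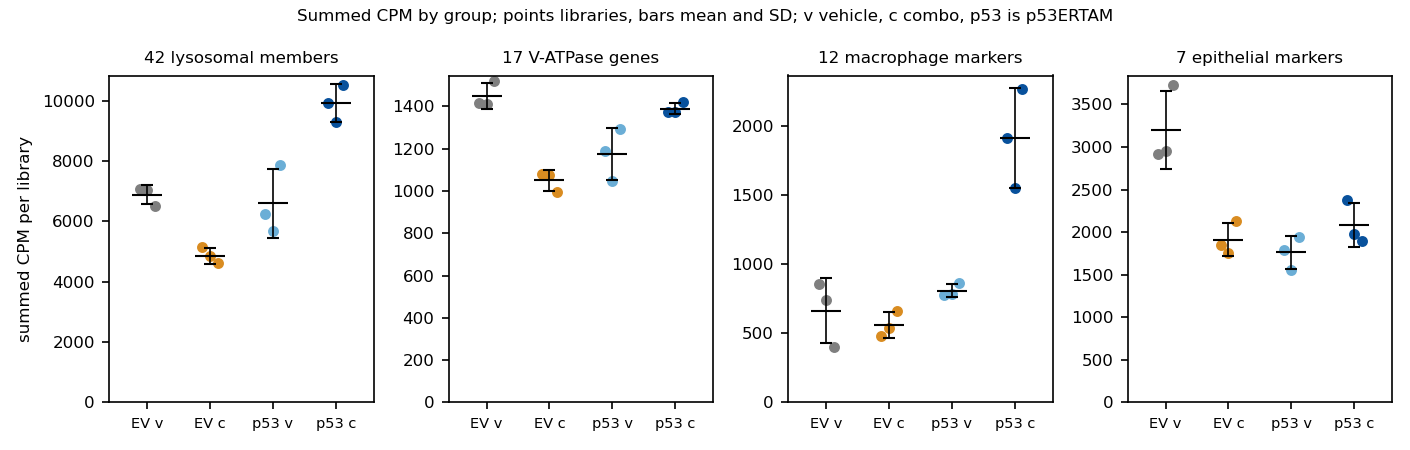
Summed CPM per library (points) with group mean and SD (bars) for the 42 lysosomal genes, 17 V-ATPase genes, 12 macrophage markers and 7 epithelial markers. The lysosomal sum in p53ERTAM combo, 9309 to 10542, lies above every other library, as does the macrophage sum, 1551 to 2268.

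In EV tumors the combination lowered 16 of the 42 genes and raised 3. The genes that fell included the membrane protein gene Lamp1, the proteases Ctsd, Ctsh and Ctsz, the sphingolipid genes Smpd1, Asah1 and Psap, and the cholesterol carrier gene Npc2, and those that rose were Ctsk, Idua and Mcoln1. In edgeR's quasi-likelihood test at an adjusted p below 0.05, 39.9% of all genes tested were called in this comparison, 18.8% higher and 21.1% lower. The 19 lysosomal genes called are 45.2% of the 42, close to that background, and the 38.1% called lower compare with 21.1% of all genes and 25.2% of protein-coding genes. The median log2 fold change was -0.39, against -0.07 over all genes and -0.13 over protein-coding genes. Epithelial markers were lower with the drugs as well (4 of 7 fell, summed TPM 4180 to 5415 against 2801 to 3666) and fibroblast markers higher (6 of 8 rose, 206 to 218 against 442 to 872), and their part in the result was not tested. In bulk tumors, fewer cells of a type and less RNA per cell cannot be told apart.

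Some of the calls in EV tumors were lost with another gene set or without single libraries. When only protein-coding genes were kept, which removes Gm26917 and all other noncoding genes, 11 fell and 4 rose. Grn, Ppt1, Neu1, Ids and Gaa were no longer called (adjusted p 0.0521 to 0.102 by edgeR). The split of all protein-coding genes moved with this choice, from 1943 higher and 3505 lower in the fit on all genes to 2524 higher and 2467 lower in the fit on protein-coding genes alone, in which 26.2% of the 42 were lower against 17.7% of protein-coding genes. Leaving out EV vehicle replicate 1 ended 4 calls, Grn, Ppt1, Ids and Gaa (0.0526 to 0.108), and leaving out EV vehicle replicate 2 ended these and Lamp2 and Neu1 (0.0615 to 0.116). The 3 calls of Grn, Ppt1 and Neu1 ended without EV combo replicate 1 (0.0558 to 0.0754), and 7 calls, those 3 with Ctsk, Lamp2, Ids and Gaa, without EV combo replicate 3 (0.052 to 0.0881). Neu1 was lost without EV vehicle replicate 3 (0.0554) and Ids without EV combo replicate 2 (0.0721). In each of the refits without EV vehicle replicate 2 and without EV combo replicate 3, 10 genes were lower. The other 12 calls, 10 lower (Ctsd, Ctsh, Ctsz, Hexa, Arsb, Asah1, Smpd1, Psap, Npc2 and Lamp1) and 2 higher (Idua and Mcoln1), held in every refit.

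In p53ERTAM tumors the combination raised 15 of the 42 genes and lowered none. The 15 were the proteases Ctsa, Ctsb, Ctsc, Ctsh, Ctsk, Ctsz and Lgmn, the glycosidases Man2b1 and Hexa, the lipid genes Lipa, Ppt1, Galc and Psap, the cholesterol exporter gene Npc1, and Grn. The background was 6.28% of all genes called, 3.3% higher and 2.98% lower, so that 35.7% of the 42 stood against 3.3% of all genes and 4.1% of protein-coding genes. In the fit on protein-coding genes alone the 42 again gave 15 higher and 0 lower, against 3.67% of those genes higher. The median was 0.42, against 0.00 over all genes and 0.06 over protein-coding genes. No gene of the 42 was lower at an unadjusted p below 0.05 either, and DESeq2 called 17 higher and 0 lower, with Ctsd and Lamp1 added. In 28 of the 42 every combo library was above every vehicle library, against 17.6% of all genes. In none was every combo library below, against 15.4% of all genes.

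Macrophage markers moved the same way in these tumors: 10 of 12 rose with the drugs (median 1.32), and none is at 0 in any group. Their summed level was 1222 to 1581 TPM under vehicle and 3202 to 4464 TPM under combo, the ratio of means being 2.64 against 1.66 for the lysosomal genes. In EV tumors 0 of 12 were called (0 at an unadjusted p below 0.05, 0 by DESeq2), with 706 to 1541 TPM under vehicle and 934 to 1332 under combo. EV vehicle replicate 3 held the 706 TPM, against 1541 and 1426 in replicates 1 and 2, and without it 4 of the 12 markers and 19 of the 42 lysosomal genes were called lower with the drugs. Whether the macrophage RNA accounts for the lysosomal values was not tested.

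Most calls in p53ERTAM tumors depended on each of 4 of the 6 libraries of the comparison. Leaving out p53ERTAM vehicle replicate 1 or p53ERTAM combo replicate 3 ended 13 of the 15 (adjusted p 0.051 to 0.115 and 0.0659 to 0.138 by edgeR), so that 2 were higher, Man2b1 and Psap. Without p53ERTAM vehicle replicate 2 or p53ERTAM combo replicate 1, 12 ended (0.0554 to 0.126 and 0.065 to 0.135) and Npc1 was called as well. Without p53ERTAM combo replicate 2, Ctsb, Lipa, Ppt1 and Galc were lost (0.0503 to 0.0631). Without p53ERTAM vehicle replicate 3, the library with the highest lysosomal sum of its group, 20 were called, with Ctsd, Lamp1, Lamp2, Asah1 and Smpd1 added. The calls over all genes moved too in these 6 refits, from 593 higher to between 63 and 984. The 10 macrophage calls became 3 when replicate 1 or 2 of p53ERTAM vehicle, or replicate 1 or 3 of p53ERTAM combo, was left out.

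**Figure D4:**
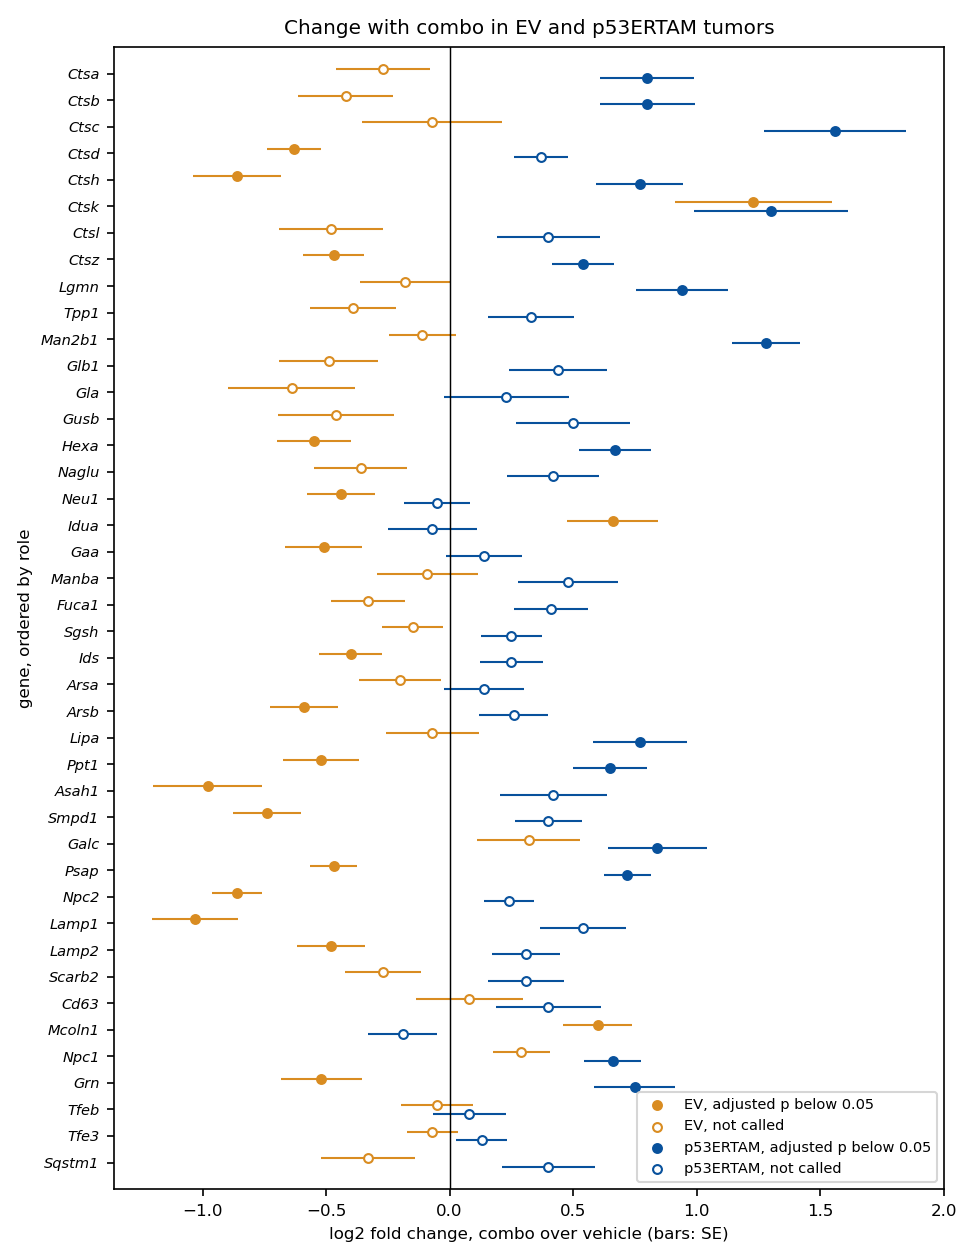
Log2 fold change of combo over vehicle with its SE (bars) for each of the 42 genes in EV and p53ERTAM tumors. Filled points passed the adjusted p of 0.05: in EV tumors 16 lie left of 0 and 3 right, in p53ERTAM tumors all 15 lie right.

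Under vehicle, p53ERTAM and EV tumors differed in 16 of the 42 genes, 8 higher and 8 lower in p53ERTAM. The higher genes were Cd63, Arsa, Sgsh, Galc, Idua, Neu1, Lgmn and Npc2, and the lower ones Tfe3, Lamp2, Ctsd, Arsb, Ids, Smpd1, Asah1 and Lamp1. The share called, 38.1%, is near the background (37.8% of all genes, 17.9% higher and 19.8% lower), and the median was 0.13. Of these calls Lamp1, Npc2, Neu1, Asah1 and Lgmn were each lost without at least 1 library: 2 without EV vehicle replicate 1 (edgeR adjusted p 0.0511 and 0.0532), 3 without EV vehicle replicate 2 (up to 0.0741), 4 without EV vehicle replicate 3 (up to 0.111), 2 without p53ERTAM vehicle replicate 1 (0.0635 and 0.08), 5 without p53ERTAM vehicle replicate 2 (up to 0.152) and 2 without p53ERTAM vehicle replicate 3 (0.0706 and 0.091). Lgmn was also lost without EV combo replicate 1 (0.0577), 2 (0.056) or 3 (0.0548). Epithelial markers were lower in p53ERTAM under vehicle (5 of 7 fell, summed TPM 4180 to 5415 in EV against 1979 to 2897) and fibroblast markers higher (5 of 8 rose, 206 to 218 against 609.9 to 1302), and their part in these values was not tested. Without p53ERTAM vehicle replicate 2, which held the 1302 TPM, 5 of the 8 fibroblast markers were called higher.

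Under combo, 34 of the 42 genes had a higher level in p53ERTAM than in EV tumors and 2 had a lower one, Mcoln1 and Tfe3. The background was 44.1% of all genes, 22.1% higher and 22.0% lower, against 81.0% of the 42 called higher. The median was 0.95, against 0.06 over all genes and 0.13 over protein-coding genes. In 34 of the 42 genes every p53ERTAM library was above every EV library, against 32.3% of all genes. In 2 every p53ERTAM library was below, against 29.4% of all genes. The 6 genes not called were Ctsk, Idua, Ids, Arsb, Lamp2 and Tfeb. This comparison shares its EV combo libraries with the combo comparison in EV tumors and its p53ERTAM combo libraries with the one in p53ERTAM tumors. Macrophage markers were higher too (11 of 12, summed TPM 934 to 1332 against 3202 to 4464), and their part was not tested. In the fit on protein-coding genes alone 31 of the 42 were higher (73.8%, against 21.9% of protein-coding genes) and 2 lower, while protein-coding genes as a whole went from 3705 higher and 2714 lower to 3044 and 3373. Leaving out single libraries ended at most 4 calls, all of them among Glb1, Lipa, Npc1 and Asah1: 2 without EV combo replicate 1 (edgeR adjusted p 0.0806 and 0.113), 2 without EV combo replicate 2 (0.0543 and 0.126), 4 without EV combo replicate 3 (up to 0.15), 4 without p53ERTAM combo replicate 1 (up to 0.0822), 2 without p53ERTAM combo replicate 2 (0.075 and 0.0902), 4 without p53ERTAM combo replicate 3 (up to 0.166) and Lipa without p53ERTAM vehicle replicate 1 (0.055).

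The difference between the 2 drug effects was itself tested, as the interaction of vector and treatment. It was called for 30 of the 42 genes (71.4%, against 36.0% of all genes), 28 with a more positive change in p53ERTAM tumors (66.7%, against 18.8% of all genes and 23.1% of protein-coding genes) and 2, Mcoln1 and Idua, with a more negative one. The median interaction was 0.84 on the log2 scale, against 0.13 over all genes and 0.23 over protein-coding genes. A set of 6 genes fell in EV tumors and rose in p53ERTAM tumors, all with a called interaction: Ctsh, Ctsz, Grn, Hexa, Ppt1 and Psap. A further 10 fell in EV tumors and were not called in p53ERTAM tumors (Arsb, Asah1, Ctsd, Gaa, Ids, Lamp1, Lamp2, Neu1, Npc2 and Smpd1), and 8 rose in p53ERTAM tumors and were not called in EV tumors (Ctsa, Ctsb, Ctsc, Galc, Lgmn, Lipa, Man2b1 and Npc1). Of these 18, the interaction was not called for Neu1 (edgeR adjusted p = 0.127), Galc (0.17) and Npc1 (0.0932). These groupings are by edgeR: DESeq2 called Ctsd and Lamp1 higher in p53ERTAM tumors and Npc1 higher in EV tumors. In the fit on protein-coding genes alone 19 of the 42 interactions were called positive (45.2%, against 14.1% of protein-coding genes) and 2 negative, and protein-coding genes as a whole went from 3207 positive and 1629 negative to 1962 and 2124. Cell markers had called interactions too, positive for 7 of 12 of macrophages (median 1.35), 4 of 7 of epithelium (0.96) and 3 of 7 of T cells (2.58) and negative for 5 of 8 of fibroblasts (-1.19), and their part was not tested. Without EV vehicle replicate 3 the macrophage count was 11 and the T cell count 6, and without EV combo replicate 3 the fibroblast count was 3. Of the 30 calls, 20 held in every refit, and the other 10 (Ctsl, Glb1, Gusb, Lipa, Naglu, Tpp1, Idua, Gaa, Fuca1 and Sqstm1) were each lost in at least 1. Without 1 library the number lost was 7, 8 and 2 for EV vehicle replicates 1, 2 and 3, 3, 4 and 8 for EV combo, 8, 7 and 0 for p53ERTAM vehicle and 9, 6 and 9 for p53ERTAM combo, with edgeR adjusted p of the lost genes from 0.0515 to 0.123.

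Among the 10 proteases, 7 rose with the drugs in p53ERTAM tumors, 3 fell in EV tumors and 1 rose there. Over all genes 3.3% rose in p53ERTAM tumors, and 21.1% fell and 18.8% rose in EV tumors. Between the vectors, 17.9% of all genes were higher and 19.8% lower in p53ERTAM under vehicle, and 22.1% higher and 22.0% lower under combo. The counts of this role and of the other roles below stand beside these shares. Ctsd (ENSMUSG00000007891.16, GRCm38 chromosome 7, 142375911 to 142388038, minus strand) encodes cathepsin D, the main aspartic protease of the lysosome. It stood at 682, 723 and 651 CPM in EV vehicle, 471, 435 and 424 in EV combo, 432, 411 and 545 in p53ERTAM vehicle and 607, 575 and 618 in p53ERTAM combo. Every EV vehicle library was above every EV combo and every p53ERTAM vehicle library. Ctsd fell by 0.63 on the log2 scale with the drugs in EV tumors (SE 0.111, edgeR adjusted p = 0.000947) and was 0.37 higher in p53ERTAM tumors without passing the test (SE 0.111, adjusted p = 0.0603). The difference between these effects, 1.0, passed (SE 0.157, adjusted p = 0.000773).

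Ctsh, which encodes cathepsin H, a cysteine protease with aminopeptidase activity, was at 123, 106 and 187 CPM in EV vehicle and 82.6, 66.6 and 80 in EV combo, with no overlap. In p53ERTAM tumors it was at 98.7, 97.8 and 115 under vehicle and 196, 163 and 171 under combo. It fell by 0.86 in EV tumors (SE 0.178, edgeR adjusted p = 0.00236) and rose by 0.77 in p53ERTAM tumors (SE 0.176, adjusted p = 0.027). Ctsz, which encodes the carboxypeptidase cathepsin Z, followed the same course, from 196, 186 and 159.5 CPM to 129, 135 and 128 in EV tumors and from 164, 166 and 218 to 260, 243 and 296 in p53ERTAM tumors. Its changes were -0.47 (SE 0.125, edgeR adjusted p = 0.0101) and 0.54 (SE 0.125, adjusted p = 0.0266).

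Ctsc had the largest rise with the drugs in p53ERTAM tumors among the 42. It encodes cathepsin C, the dipeptidyl peptidase that activates granule proteases of immune cells. In p53ERTAM tumors it went from 79.9, 59.8 and 95.6 CPM to 236, 188 and 272, a 2.95-fold rise (log2 1.56, SE 0.289, edgeR adjusted p = 0.0151). EV libraries overlapped, at 111, 106 and 44.1 under vehicle and 90.2, 80.1 and 79.5 under combo, with replicate 3 of the vehicle group far below the other 2. Lgmn, which encodes the asparaginyl endopeptidase legumain, rose 1.91-fold in p53ERTAM tumors, from 138, 174 and 159.6 CPM to 306, 258 and 339 (SE 0.185 on the log2 scale, edgeR adjusted p = 0.0168). Its EV libraries overlapped, at 146, 108 and 77.4 under vehicle and 98.6, 90.5 and 103 under combo. Under vehicle it was called higher in p53ERTAM (0.51, SE 0.184, edgeR adjusted p = 0.0444) although the groups overlapped.

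Ctsk, the collagen-cleaving cathepsin best known from bone-resorbing cells, was the 1 gene of the 42 called higher with the drugs in both vectors. It was low throughout: 2.96, 2.41 and 2.24 CPM in EV vehicle, 3.87, 5.13 and 8.83 in EV combo, 3.12, 4.26 and 4.14 in p53ERTAM vehicle, and 11.4, 7.19 and 9.65 in p53ERTAM combo. Combo libraries lay above vehicle libraries in both vectors, and the spread among EV combo libraries was wide. The rise was 2.34-fold in EV (log2 1.23, SE 0.319, edgeR adjusted p = 0.00829) and 2.46-fold in p53ERTAM tumors (log2 1.30, SE 0.312, adjusted p = 0.0312), and the difference between these rises was not called (0.07, SE 0.447, adjusted p = 0.921). The call in EV tumors was lost without EV combo replicate 3, the highest library of its group. Of 3 other markers of bone-resorbing cells that passed the filter, Ocstamp rose with the drugs in p53ERTAM tumors and none was called in EV tumors (0 at an unadjusted p below 0.05, 0 by DESeq2). The call of Ocstamp was lost in 5 of the 6 refits that left out a p53ERTAM library, all but that without p53ERTAM vehicle replicate 3.

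The other proteases were Ctsb and Ctsa, which rose 1.74-fold each in p53ERTAM tumors (edgeR adjusted p = 0.0313 and 0.0312), and Ctsl and Tpp1, which were not called for the drugs in either vector. Ctsb, a cysteine protease, was at 763, 749 and 1232 CPM in p53ERTAM vehicle and 1599, 1435 and 1751 in p53ERTAM combo, and Ctsa, which also shields the enzymes of sialic acid and galactose removal, at 122, 111 and 190 and then 241, 212 and 283. Replicate 3 was the highest of the 3 vehicle libraries for both. Ctsa shares 1515 bases with Pltp on the opposite strand, whose counts were 0.401 times its own and which also rose in p53ERTAM tumors (0.59, SE 0.143, edgeR adjusted p = 0.0314), so that its reads may not be told apart from those of Pltp. Against EV under combo, 9 of the 10 proteases were higher in p53ERTAM tumors, with Lgmn at 3.09-fold (edgeR adjusted p = 3.47e-05) and Ctsz at 2.04-fold (adjusted p = 4.81e-05) the 2 of smallest p.

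**Figure D5:**
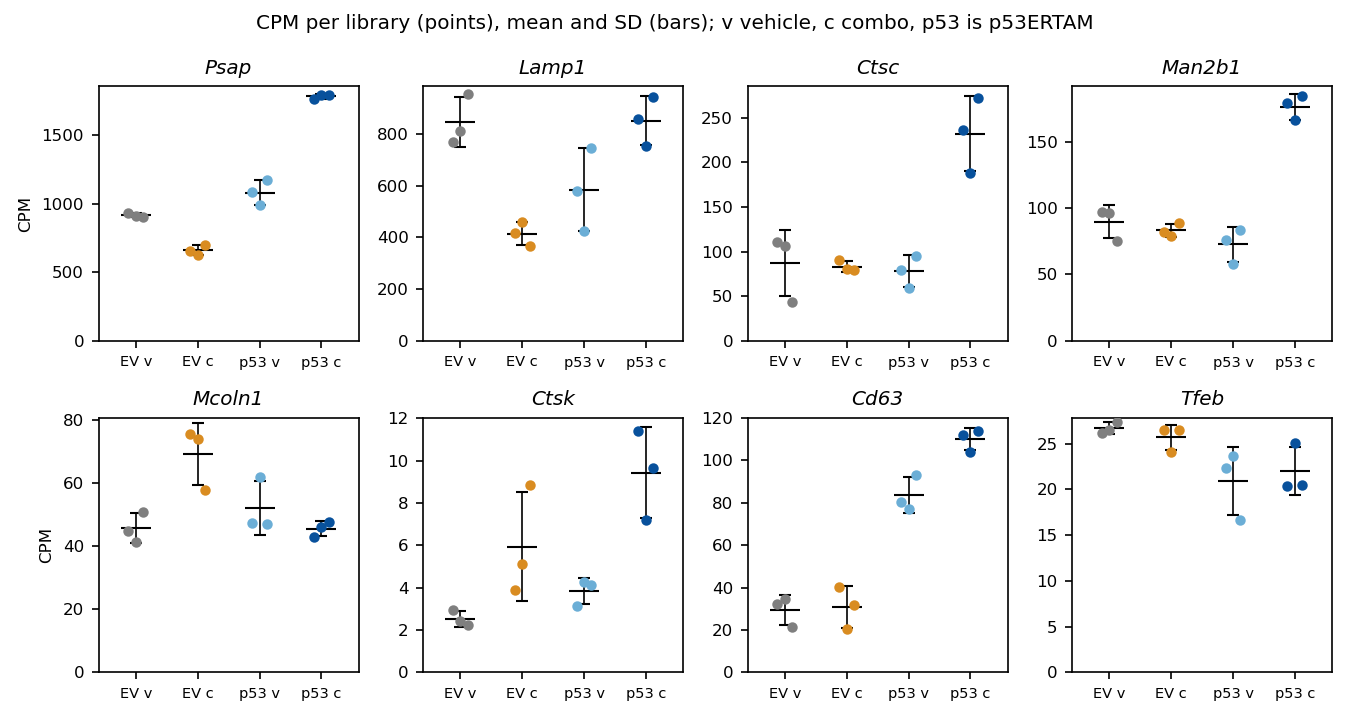
CPM per library (points) with group mean and SD (bars) for Psap, Lamp1, Ctsc, Man2b1, Mcoln1, Ctsk, Cd63 and Tfeb. Psap lies at 626 to 697 in EV combo and 1765 to 1795 in p53ERTAM combo, the mean of Mcoln1 is highest in EV combo, and Cd63 is higher in both p53ERTAM groups.

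Of the 11 glycosidases, which remove sugars from glycoproteins and glycolipids, 3 fell (Hexa, Neu1 and Gaa) and 1 rose (Idua) with the drugs in EV tumors, and 2 rose (Man2b1 and Hexa) in p53ERTAM tumors. Man2b1, the lysosomal alpha-mannosidase gene (ENSMUSG00000005142.10, GRCm38 chromosome 8, 85083270 to 85098282, plus strand), was at 97.1, 96.5 and 75.1 CPM in EV vehicle, 82.0, 79.0 and 88.6 in EV combo, 76.2, 58.1 and 83.5 in p53ERTAM vehicle, and 179, 166 and 184 in p53ERTAM combo. The first 3 groups overlapped, and all 3 p53ERTAM combo libraries stood above them. The rise in p53ERTAM tumors was 2.42-fold (log2 1.28, SE 0.138, edgeR adjusted p = 0.00114), the smallest p of the 42 in that comparison. In EV tumors the change was -0.11 (SE 0.136, adjusted p = 0.565), and the interaction was 1.38 (SE 0.193, adjusted p = 0.000483).

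Hexa, which encodes the alpha subunit of the enzyme that degrades GM2 ganglioside, fell in EV tumors from 60.5, 48.8 and 58.9 CPM to 38.4, 36.8 and 39.1 (log2 -0.55, SE 0.149, edgeR adjusted p = 0.0101). In p53ERTAM tumors it rose from 56.9, 61.7 and 82.3 to 107, 91.5 and 121 (0.67, SE 0.147, adjusted p = 0.0231). Neither pair of groups overlapped. Neu1, the lysosomal sialidase gene, was at 29.3, 34.2 and 31.6 CPM in EV vehicle, 22.0, 27.4 and 20.9 in EV combo, and 37.8, 49.3 and 43.8 and 40.0, 42.3 and 44.2 in the 2 p53ERTAM groups. It was higher in p53ERTAM than in EV under vehicle (0.46, SE 0.135, edgeR adjusted p = 0.0171) and under combo (0.85, SE 0.137, adjusted p = 0.000333).

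Idua, which encodes the iduronidase that trims heparan and dermatan sulfate, rose with the drugs in EV tumors from 8.73, 7.41 and 6.30 CPM to 12.9, 9.68 and 12.8 (log2 0.66, SE 0.183, edgeR adjusted p = 0.012). The p53ERTAM libraries were at 11.5 to 13.8 CPM under either treatment. Idua shares 9342 bases with Dgkq on the opposite strand, whose counts were 2.86 times its own and which stood at 21.6 to 28.1 CPM in EV vehicle and 50.9 to 57.5 in EV combo. The strand setting of the counting is not stated, so reads of Idua and Dgkq may not be told apart. The Idua interaction (-0.73, SE 0.257, adjusted p = 0.0408) was lost in 9 of the 12 refits that left out 1 library, the exceptions being the refits without replicate 1 of EV vehicle, replicate 2 of EV combo and replicate 3 of p53ERTAM vehicle. The remaining 7 glycosidases, Glb1, Gla, Gusb, Naglu, Manba, Fuca1 and Gaa, had changes with the drugs from -0.64 to -0.09 in EV tumors and 0.14 to 0.50 in p53ERTAM tumors, of which only the fall of Gaa (-0.51, SE 0.156, adjusted p = 0.0204), the acid alpha-glucosidase gene, passed the test. Under combo 10 of 11 glycosidases were higher in p53ERTAM than in EV. Glb1 overlaps Tmppe on the same strand over 6172 bases, and its counts are uncertain to that extent.

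Under vehicle the 4 sulfatases split between the vectors. Arsa (arylsulfatase A, which acts on sulfatide) and Sgsh (heparan N-sulfatase) were higher in p53ERTAM tumors, and Arsb (arylsulfatase B) and Ids (iduronate 2-sulfatase) lower. Arsa was at 24.2, 29.4 and 33.4 CPM in EV vehicle and 47.5, 46.6 and 66.6 in p53ERTAM vehicle (log2 0.89, SE 0.165, edgeR adjusted p = 0.00128), and at 27.0, 27.7 and 21.3 and 56.0, 59.1 and 62.4 under combo (1.22, SE 0.166, adjusted p = 0.000102). All 6 p53ERTAM libraries were above all 6 EV libraries. Sgsh showed the same order, 29.5, 25.1 and 25.8 against 38.9, 44.9 and 37.3 under vehicle (0.59, SE 0.123, adjusted p = 0.00263) and 22.0, 26.9 and 23.9 against 46.0, 51.1 and 47.4 under combo (0.99, SE 0.124, adjusted p = 5.64e-05).

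Arsb was at 162, 143 and 159 CPM in EV vehicle, above every library of the other 3 groups: 97.7, 96.1 and 115 in EV combo, 111, 72.5 and 100.2 in p53ERTAM vehicle and 121, 109 and 109.6 in p53ERTAM combo. It was lower by the drugs in EV tumors (-0.59, SE 0.139, edgeR adjusted p = 0.0051) and lower in p53ERTAM under vehicle (-0.71, SE 0.14, adjusted p = 0.00182). Ids was at 70.6, 72.9 and 58.9 in EV vehicle and 54.3, 49.5 and 50.1 in EV combo, and at 47.7, 38.4 and 52.7 and 58.5, 52.2 and 55.0 in the p53ERTAM groups (-0.40, SE 0.127, adjusted p = 0.0248 with the drugs in EV and -0.54, SE 0.128, adjusted p = 0.00513 between vectors under vehicle). In p53ERTAM tumors 0 of the 4 sulfatases were called for the drugs by edgeR, with 0 at an unadjusted p below 0.05 and 0 by DESeq2.

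Of the 7 genes of lipid breakdown, 5 fell with the drugs in EV tumors, 4 rose in p53ERTAM tumors, and all 7 were higher in p53ERTAM than in EV under combo. Psap (ENSMUSG00000004207.14, GRCm38 chromosome 10, 60277627 to 60302597, plus strand) encodes prosaposin, the precursor of the saposins that present sphingolipids to their hydrolases. It was at 932, 914 and 905 CPM in EV vehicle, 659, 626 and 697 in EV combo, 1086, 988 and 1171 in p53ERTAM vehicle and 1765, 1793 and 1795 in p53ERTAM combo. The 4 groups did not overlap and the libraries of a group lay close together. Psap fell by 0.47 in EV tumors (SE 0.094, edgeR adjusted p = 0.00189), rose by 0.72 in p53ERTAM tumors (SE 0.0942, adjusted p = 0.00359) and was 2.70-fold higher in p53ERTAM than in EV under combo (SE 0.0956 on the log2 scale, adjusted p = 9.75e-07), the smallest p of the 42 in that comparison.

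Npc2, which encodes the soluble cholesterol carrier of the lysosome, had the smallest p of the 42 for the drugs in EV tumors. It went from 146, 154 and 135 CPM to 84.3, 79.8 and 76.3 there (log2 -0.86, SE 0.102, edgeR adjusted p = 0.000135), and was at 155, 197 and 187 and then 215, 209 and 211 in p53ERTAM tumors (0.24, SE 0.101, adjusted p = 0.163). Under combo it was 2.64-fold higher in p53ERTAM (adjusted p = 1.48e-06). Smpd1, the acid sphingomyelinase gene, fell in EV tumors from 36.4, 37.3 and 40.0 CPM to 22.8, 23.0 and 22.0 (-0.74, SE 0.138, adjusted p = 0.00127). Its p53ERTAM libraries were at 23.2, 22.8 and 32.0 under vehicle and 32.8, 33.0 and 37.1 under combo. So Smpd1 was lower in p53ERTAM under vehicle (-0.54, SE 0.137, adjusted p = 0.00775) and higher under combo (0.60, SE 0.138, adjusted p = 0.00367), as were Asah1, the acid ceramidase gene, Ctsd and Lamp1.

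Asah1 was at 211, 234 and 269.9 CPM in EV vehicle, 131, 133 and 98 in EV combo, 149, 91.4 and 199 in p53ERTAM vehicle, and 196, 185 and 207 in p53ERTAM combo. It fell 1.97-fold with the drugs in EV tumors (SE 0.219 on the log2 scale, edgeR adjusted p = 0.00402), and its change in p53ERTAM tumors did not pass the test (0.42, SE 0.217, adjusted p = 0.257). Galc, which encodes galactosylceramidase, was low but ordered by vector: 5.67, 4.12 and 4.38 CPM in EV vehicle, 5.20, 6.21 and 6.27 in EV combo, 10.7, 7.34 and 8.98 in p53ERTAM vehicle and 15.9, 15.1 and 17.5 in p53ERTAM combo. It was higher in p53ERTAM under vehicle (0.93, SE 0.206, adjusted p = 0.00361) and under combo (1.46, SE 0.205, adjusted p = 0.000131) and rose with the drugs in p53ERTAM tumors (0.84, SE 0.2, adjusted p = 0.03).

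Ppt1, which encodes a thioesterase that removes fatty acids from proteins, fell in EV tumors from 54.4, 57.6 and 42.4 CPM to 34.4, 38.7 and 34.9 (-0.52, SE 0.153, edgeR adjusted p = 0.0164) and rose in p53ERTAM tumors from 57.0, 44.0 and 67.8 to 88.0, 84.4 and 92.5 (0.65, SE 0.151, adjusted p = 0.0284). It shares 129 bases with Cap1 on the opposite strand, whose counts were 3.1 times its own and which moved the same way (-0.51, adjusted p = 0.0233 in EV tumors and 0.72, adjusted p = 0.0257 in p53ERTAM tumors). Lipa, the acid lipase gene, was not called in EV tumors (-0.07, SE 0.188, adjusted p = 0.809) and rose in p53ERTAM tumors (0.77, SE 0.189, adjusted p = 0.0326).

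The 6 membrane proteins did not move as a block. Lamp1 (ENSMUSG00000031447.7, GRCm38 chromosome 8, 13159161 to 13175338, plus strand), whose promoter with 4 E-boxes is shown above, encodes a major glycoprotein of the lysosomal wall and had the largest fall of the 42 with the drugs in EV tumors. It was at 767, 812 and 955 CPM in EV vehicle, 415, 458 and 368 in EV combo, 580.1, 426 and 746 in p53ERTAM vehicle and 856, 753 and 942 in p53ERTAM combo. EV combo and EV vehicle did not overlap, and the p53ERTAM vehicle libraries ranged from the level of EV combo to just under that of EV vehicle. It fell 2.04-fold in EV tumors (log2 -1.03, SE 0.175, edgeR adjusted p = 0.000789). In p53ERTAM tumors it was 0.54 higher without passing the test (SE 0.173, adjusted p = 0.0771), and the interaction was 1.57 (SE 0.246, adjusted p = 0.000791).

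Lamp2, which also serves uptake of proteins by chaperone-mediated autophagy, was at 354, 390 and 348 CPM in EV vehicle and lower in all other libraries: 292, 262 and 229 in EV combo, 226, 177 and 266 in p53ERTAM vehicle and 289, 256 and 286 in p53ERTAM combo. It fell by 0.48 with the drugs in EV tumors (SE 0.137, edgeR adjusted p = 0.0141) and was lower in p53ERTAM than in EV under vehicle (-0.71, SE 0.138, adjusted p = 0.0017). Mcoln1 went the other way. It encodes the calcium channel TRPML1, through which lysosomes release calcium, and its promoter is shown above with 2 E-boxes. It was at 44.9, 41.4 and 50.8 CPM in EV vehicle, 75.4, 74.0 and 57.8 in EV combo, 47.2, 61.7 and 47.0 in p53ERTAM vehicle and 42.8, 45.9 and 47.7 in p53ERTAM combo. Mcoln1 rose 1.51-fold in EV tumors (log2 0.60, SE 0.14, adjusted p = 0.00499) and did not pass the test in p53ERTAM tumors (-0.19, SE 0.14, adjusted p = 0.431), and the interaction was -0.79 (SE 0.198, adjusted p = 0.00856). Under combo it was lower in p53ERTAM than in EV (-0.60, SE 0.14, adjusted p = 0.00395).

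Cd63, which encodes a tetraspanin of lysosomes and secreted vesicles, had the largest difference between the vectors of the 42. It was at 32.3, 34.4 and 21.3 CPM in EV vehicle, 40.4, 20.4 and 32.0 in EV combo, 80.4, 76.9 and 93.0 in p53ERTAM vehicle, and 112, 104 and 114 in p53ERTAM combo. All 6 p53ERTAM libraries were above all 6 EV libraries, 2.85-fold under vehicle (log2 1.51, SE 0.218, edgeR adjusted p = 0.000291) and 3.55-fold under combo (log2 1.83, SE 0.22, adjusted p = 4.91e-05). The drugs gave no call in either vector (0.08 and 0.40, adjusted p = 0.803 and 0.267). Npc1, whose product moves cholesterol out of the lysosome together with that of Npc2, was not called lower with it: it was at 61.5, 60.7 and 52.7 CPM in EV vehicle and 78.2, 66.1 and 69.8 in EV combo (0.29, SE 0.115, adjusted p = 0.0579), and rose in p53ERTAM tumors from 55.6, 49.8 and 63.1 to 83.4, 89.2 and 93.7 (0.66, SE 0.115, adjusted p = 0.0111). In EV tumors Npc1 was called higher with RLE scaling, by DESeq2, with only the 2 groups compared, without replicate 2 or 3 of p53ERTAM vehicle and with protein-coding genes only (0.22 to 0.42 over all alternatives, adjusted p 0.00897 to 0.21), and under those that called it, it rose in both vectors, as Ctsk did. It shares 305 bases with Rmc1 on the opposite strand, whose counts were 0.389 times its own and which rose in EV tumors (0.44, SE 0.12, edgeR adjusted p = 0.0105). Scarb2, the receptor that carries glucocerebrosidase to the lysosome, was not called for the drugs (adjusted p = 0.183 and 0.231) and was higher in p53ERTAM under combo (0.93, SE 0.156, adjusted p = 0.000451).

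Grn encodes progranulin, a secreted growth factor precursor that is cut to granulins in the lysosome and supports its hydrolases. It was at 363, 327 and 234 CPM in EV vehicle, 218, 228 and 199 in EV combo, 297, 238 and 359.8 in p53ERTAM vehicle and 505, 468 and 531 in p53ERTAM combo. The groups compared did not overlap for the drugs in either vector. Grn fell by 0.52 in EV tumors (SE 0.164, edgeR adjusted p = 0.0228), rose by 0.75 in p53ERTAM tumors (SE 0.164, adjusted p = 0.0226) and was 2.33-fold higher in p53ERTAM than in EV under combo (adjusted p = 9.93e-05).

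The 3 regulators were not called for the drugs in either vector by edgeR, with 0 of 3 at an unadjusted p below 0.05 and 0 by DESeq2. Tfeb was the 1 gene of the 42 called in no comparison of the main fit, with 26.1, 26.5 and 27.3 CPM in EV vehicle, 26.5, 24.1 and 26.5 in EV combo, 22.3, 23.6 and 16.7 in p53ERTAM vehicle and 20.4, 25.1 and 20.5 in p53ERTAM combo. Under vehicle it was -0.36 in p53ERTAM against EV, and was called lower without p53ERTAM vehicle replicate 2. Its change with the drugs was -0.05 in EV tumors (SE 0.146, edgeR adjusted p = 0.804) and 0.08 in p53ERTAM tumors (SE 0.147, adjusted p = 0.789). Tfe3 was lower in p53ERTAM tumors under both treatments: 90.9, 86.7 and 81.8 CPM in EV vehicle and 83.1, 91.0 and 72.3 in EV combo, against 54.5, 54.8 and 60.2 and 60.6, 61.9 and 62.6. The 6 libraries of each vector did not overlap (-0.61, SE 0.103, adjusted p = 0.000678 under vehicle and -0.41, SE 0.103, adjusted p = 0.00595 under combo). TFEB and TFE3 act by moving to the nucleus, which transcript levels do not measure.

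Sqstm1, which encodes the cargo receptor p62 of autophagy, was at 110.1, 128 and 92.3 CPM in EV vehicle, 107, 81.0 and 75.0 in EV combo, 89.6, 143 and 142 in p53ERTAM vehicle and 174, 143 and 176 in p53ERTAM combo. It was higher in p53ERTAM than in EV under combo (0.90, SE 0.191, edgeR adjusted p = 0.00218). Its interaction (0.72, SE 0.268) passed at an adjusted p just under the threshold. It was lost by DESeq2 (0.0549), with RLE scaling, with no filter, with protein-coding genes only and with the replicate block. It was also lost in 8 of the 12 refits without 1 library, the exceptions being the refits without replicate 3 of EV vehicle, replicate 1 of EV combo, and replicates 2 and 3 of p53ERTAM vehicle.

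Genes outside the 42 that serve the same organelle were counted from lists set beside them. Over all genes, 18.8% rose and 21.1% fell with the drugs in EV tumors. In p53ERTAM tumors 3.3% of all genes rose and 2.98% fell. The counts of each list below stand beside these shares, and no list was tested as a set. Of 23 other lysosomal hydrolases, 8 rose and none fell with the drugs in p53ERTAM tumors (13 and 0 at an unadjusted p below 0.05, 11 and 0 by DESeq2), led by Ctss (log2 1.82, SE 0.265, edgeR adjusted p = 0.00556) and Man2b2 (1.24, SE 0.194, adjusted p = 0.00626), while 1 rose and 5 fell in EV tumors. Of 20 other lysosomal membrane proteins, 5 rose in p53ERTAM tumors, led by Laptm5 (1.15, SE 0.212, adjusted p = 0.014) and Slc15a3 (1.02, SE 0.246, adjusted p = 0.0322), and in EV tumors 4 rose and 8 fell, with Ostm1 (-0.81, SE 0.1, adjusted p = 0.000159) and Slc38a9 (0.74, SE 0.135, adjusted p = 0.00114) of smallest p. Ctss and Laptm5 are genes of immune cells in the main. In p53ERTAM tumors the hydrolase count was 4 without p53ERTAM vehicle replicate 1 or p53ERTAM combo replicate 1 or 3, and 11 without p53ERTAM vehicle replicate 3. The membrane count was 0 without replicate 1 or 2 of p53ERTAM vehicle, 0 without replicate 1 or 3 of p53ERTAM combo, 1 without p53ERTAM combo replicate 2, 2 without EV combo replicate 1 or 2, 3 without EV combo replicate 3 and 8 without p53ERTAM vehicle replicate 3. In EV tumors the number of hydrolases that fell was 3 without EV vehicle replicate 1, 2 without replicate 2, and 3 and 2 without replicates 1 and 3 of EV combo. The number of membrane proteins that fell there was 4 without replicate 1 of EV vehicle, 4 without replicate 2 of EV combo and 5 without its replicate 3, and the number that rose was 2 without replicate 3 of EV vehicle and 2 without replicate 1 or 3 of EV combo.

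Genes of the V-ATPase, the proton pump, fell in EV tumors: 70.6% were called lower, against 21.1% of all genes. Of 17 subunits and assembly factors, 12 fell with the drugs in EV tumors and 0 rose (0 higher at an unadjusted p below 0.05, 0 by DESeq2), with a median of -0.50, led by Atp6v1g1 (-1.02, SE 0.138, edgeR adjusted p = 0.000251) and Atp6v1f (-1.05, SE 0.169, adjusted p = 0.000617). In p53ERTAM tumors 0 of 17 were called in either direction by edgeR, with 7 higher at an unadjusted p below 0.05 and 2 higher by DESeq2. The median there was 0.28, and 4 were higher without p53ERTAM vehicle replicate 3. The number that fell in EV tumors was 8 without EV combo replicate 3.

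Of 10 genes for mannose 6-phosphate tagging and sorting, 1 rose and 4 fell in EV tumors, led by Gga3 (0.76, SE 0.104, edgeR adjusted p = 0.000261), an adaptor, and M6pr (-0.71, SE 0.109, adjusted p = 0.000484), a sorting receptor, and Gnptg, which encodes a subunit of the tagging enzyme, was the 1 called in p53ERTAM tumors (0.71, SE 0.171, adjusted p = 0.0318). That call was lost in 5 of the 6 refits that left out a p53ERTAM library, all but that without p53ERTAM vehicle replicate 3. Of 15 genes of the TFEB family and its nutrient-sensing inputs, 2 rose and 7 fell in EV tumors, with Lamtor1 (-0.70, SE 0.144, adjusted p = 0.00229) and Rptor (0.43, SE 0.1, adjusted p = 0.00445) of smallest p. Besides Rptor, the family member Mitf rose there (0.83, SE 0.215, adjusted p = 0.00835). Mitf was not called for the drugs in p53ERTAM tumors (0.42, SE 0.211, adjusted p = 0.235). Under vehicle it was higher in p53ERTAM than in EV (0.66, SE 0.215, adjusted p = 0.0281). In p53ERTAM tumors 3 rose: Tfec, a family member of the macrophage lineage (2.09, SE 0.436, adjusted p = 0.0192), and the GTPase genes Rraga (0.62, SE 0.152, adjusted p = 0.0324) and Rragc (0.42, SE 0.116, adjusted p = 0.0478). None of these 15 genes was called there without replicate 1 or 2 of p53ERTAM vehicle or replicate 1 or 3 of p53ERTAM combo, and 5 were without p53ERTAM vehicle replicate 3. Of the refits without 1 library, Rragc was called only in those without replicate 3 of EV vehicle or of p53ERTAM vehicle.

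Of 20 autophagy genes, 4 rose and 9 fell with the drugs in EV tumors, led by Gabarap (-0.81, SE 0.103, edgeR adjusted p = 0.000178) and Gabarapl2 (-1.07, SE 0.168, adjusted p = 0.000518), which encode membrane-tethering proteins of the autophagosome. In p53ERTAM tumors 0 of 20 were called by edgeR, with 1 higher and 1 lower at an unadjusted p below 0.05 and 1 lower by DESeq2. The interaction was called for 12 of the 20, 8 positive and 4 negative. Over all genes 18.8% rose and 21.1% fell in EV tumors, and the interaction was positive for 18.8% and negative for 17.2%.

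The calls were also counted for genes with and without the E-box letters in the promoter window. In EV tumors 1 of the 12 genes with CACGTG rose and 3 fell (median -0.42), against 2 and 11 of the 26 without (median -0.36). In p53ERTAM tumors 2 of 12 rose (median 0.39) against 10 of 26 (median 0.41). Under combo 11 of 12 were higher in p53ERTAM (median 0.98) against 19 of 26 (median 0.92). The shares of all genes were 18.8% higher and 21.1% lower with the drugs in EV tumors and 3.3% higher in p53ERTAM tumors. Under combo 22.1% of all genes were higher in p53ERTAM. The differences between the sets with and without the letters were not tested.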

How the data were processed

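RNA-seq of 12 bulk tumors gave, per the file headers, whole-number counts per gene that the authors deposited in 1 file per library. Per the submitters' processing notes, FastQC, fastp, STAR and featureCounts were used with the mouse build GRCm38.p5; their versions, the strand setting, the annotation release and the counting of mates are not given in the sources used here. Of 52636 gene IDs, 52403 were given a symbol by a reference table and 233 were not. No value was changed: genes with low counts were removed by filterByExpr over the 4 groups, which left 17970, libraries were scaled by TMM (factors 0.941 to 1.05), and 1 model of 4 group means was fitted with edgeR 4.0.16 (R 4.3.3, robust quasi-likelihood test, 8 residual degrees of freedom, biological coefficient of variation 0.221). The p-values of each of 5 comparisons were adjusted over all genes by Benjamini-Hochberg with a threshold of 0.05, and every adjusted p in the text that names no other tool is edgeR's. The scripts were tested on simulated data. TPM, used to compare genes, were computed from the counts and the gene lengths in the files. The lowest total was 13484873 counts and the highest 24424964, and no pair of libraries held identical values. Even numbers made up 66.3 to 71.7% of the counts from 1 to 20 in a library and 49.2 to 52.1% of those above 200.

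Alternatives were RLE scaling, DESeq2 1.42.0, no filter, protein-coding genes only, a replicate block, only the 2 groups compared, and each library left out. A fit without the EV combo libraries was added after seeing the data. Full values are given for up to 6 genes of smallest p per comparison and direction and for Lamp1, Ctsd, Grn, Tfeb, Tfe3 and Sqstm1. Rragc, Mitf, Ocstamp, Cdkn1a, Esr1, Trp53, Col1a1, Pdgfra, Fap, Dgkq, Pltp, Cap1, Rmc1, Gm26917 and Xist are named outside this rule, after their values were seen. The 42 genes and the other lists were chosen with earlier results of these data known.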

Additional observations from a re-analysis of the deposited data

Results flagged for a closer look

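For 30 of the 42 genes the change with the drugs differed between EV and p53ERTAM tumors by the test of the interaction itself (edgeR, adjusted p below 0.05, 36.0% of all genes). The values are differences of 2 log2 fold changes, p53ERTAM minus EV. Among proteases they were 1.63 for Ctsc, 1.63 for Ctsh, 1.22 for Ctsb, 1.12 for Lgmn, 1.07 for Ctsa, 1.01 for Ctsz, 1.0 for Ctsd, 0.88 for Ctsl and 0.71 for Tpp1. Among glycosidases they were 1.38 for Man2b1, 1.22 for Hexa, 0.96 for Gusb, 0.93 for Glb1, 0.78 for Naglu, 0.75 for Fuca1, 0.65 for Gaa and -0.73 for Idua, and among sulfatases 0.84 for Arsb and 0.65 for Ids.

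Among lipid genes the interaction was 1.40 for Asah1, 1.20 for Psap, 1.17 for Ppt1, 1.14 for Smpd1, 1.09 for Npc2 and 0.84 for Lipa. Membrane proteins gave 1.57 for Lamp1, 0.79 for Lamp2 and -0.79 for Mcoln1, and Grn and Sqstm1 gave 1.26 and 0.72. All 30 rest on the EV combo libraries, in which Gm26917 took 10.7 to 11.1% of counts. With protein-coding genes only, which removes Gm26917 and all other noncoding genes, 21 of the 30 were called. The part of the other differences in the RNA make-up of these libraries was not tested.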

How the results depend on the processing

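No called gene of the 42 changed direction under any alternative, and the calls that held under every alternative numbered 12 of 19 (drugs, EV), 2 of 15 (drugs, p53ERTAM), 11 of 16 (vehicle groups), 32 of 36 (combo groups) and 20 of 30 (interaction). Without 1 library the numbers higher and lower were 2 to 4 and 10 to 19 in EV, 2 to 20 and 0 in p53ERTAM, 6 to 8 and 6 to 11 under vehicle, 30 to 34 and 2 under combo, and 20 to 30 and 1 to 2 for the interaction. The 2 negative interactions became 1 with no filter and with the replicate block. Over all genes, leaving out 1 library gave 2721 to 3524 higher and 2948 to 4138 lower in EV, 63 to 984 and 14 to 1146 in p53ERTAM, 2209 to 3224 and 2712 to 3483 under vehicle, 3001 to 4384 and 2911 to 4256 under combo, and 2317 to 3578 and 2556 to 3256 for the interaction. In p53ERTAM tumors 593 genes were higher and 536 lower, against 1113 and 1189 by DESeq2, 1068 and 822 with only the 2 groups compared, and 378 and 249 without the EV combo libraries, where 12 of the 42 genes were called. With protein-coding genes only, 2467 genes were lower in EV (3783 in all), 1962 interactions were positive (3377 in all), and the median of all genes moved by 0.130 in EV, -0.109 between vectors under combo and -0.180 for the interaction. The summed ratio of combo to vehicle in EV was 0.774 by TPM, 0.707 by CPM and 0.923 by TPM within protein-coding genes, and that of p53ERTAM to EV under combo 1.99, 2.04 and 1.73. The cause of these shifts was not tested.

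The labels do not say whether the replicate numbers pair the tumors. Deviations of same-numbered libraries correlated at -0.149 to 0.211, with 2 of 18 pairs above 0.1. Both were between p53ERTAM vehicle and p53ERTAM combo, 0.129 for replicate 2 and 0.211 for replicate 3. Differently numbered libraries of these groups ran from -0.262 to 0.152. With 3 libraries per group such correlations cannot decide whether tumors were paired. With the replicate block the 42 genes gave 3 higher and 16 lower in EV, 14 and 0 in p53ERTAM, 7 and 8 under vehicle, 31 and 2 under combo, and 26 and 1 for the interaction.

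Values that changed sign were all of uncalled genes and at most 0.16 in size on the log2 scale. In EV tumors, with protein-coding genes only, Man2b1 was 0.024, Ctsc 0.062, Lipa 0.064, Manba 0.034, Tfeb 0.077 and Tfe3 0.056. With only the 2 groups compared, Ctsc was 0.005, Lipa 0.003 and Tfeb 0.017, and by DESeq2 Tfeb was 0.000. Without 1 library the EV values ran from -0.35 to 0.16 for Ctsc, -0.21 to 0.12 for Lipa, -0.21 to 0.012 for Manba, -0.16 to 0.30 for Cd63, -0.35 to 0.081 for Lgmn and -0.16 to 0.010 for Tfe3, and in p53ERTAM tumors from -0.14 to 0.046 for Neu1 and -0.058 to 0.17 for Tfeb. Between vectors under vehicle they ran from -0.040 to 0.39 for Ctsa, -0.12 to 0.29 for Ctsb, -0.15 to 0.17 for Ctsl, -0.13 to 0.11 for Ctsz, -0.44 to 0.068 for Ctsc, -0.067 to 0.26 for Gla, -0.14 to 0.029 for Npc1, -0.20 to 0.098 for Grn, -0.063 to 0.32 for Tpp1 and -0.026 to 0.28 for Ppt1. There the block gave -0.005 for Ctsl, and protein-coding genes only gave 0.017 for Npc1 and 0.021 for Grn. Under combo, protein-coding genes only gave -0.024 for Lamp2, -0.072 for Idua and -0.002 for Ids, and Idua was -0.007 with only the 2 groups compared and -0.083 to 0.11 without 1 library. The interaction with protein-coding genes only was -0.12 for Ctsk and -0.055 for Tfeb, with -0.16 to 0.48 and -0.001 to 0.23 without 1 library.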

Other observations

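The lysosomal genes and the V-ATPase genes were summed side by side in each library, and markers of other cell types also moved between groups. Over all genes, 18.8% rose and 21.1% fell with the drugs in EV tumors, and 2.98% fell in p53ERTAM tumors. Under combo 22.0% of all genes were lower in p53ERTAM than in EV. Erythroid genes fell with the drugs in p53ERTAM tumors (3 of 3 tested, median log2 -4.86), of which 0 were called without p53ERTAM combo replicate 3 and 1 without p53ERTAM vehicle replicate 2 or p53ERTAM combo replicate 1, and gave no call in EV tumors (0 at an unadjusted p below 0.05, 0 by DESeq2, 1 lower without EV combo replicate 3). Basal epithelial genes were lower in p53ERTAM than in EV tumors under combo (4 of 6, median -2.42), led by the keratin gene Krt14 (-4.0). Under vehicle DESeq2 called 4 of the 6 lower and 1 higher in p53ERTAM. Endothelial genes rose with the drugs in EV tumors (3 of 6, median 0.81), led by Vwf (1.29), which encodes von Willebrand factor. Vwf was low, at 0.243 to 0.625 TPM in EV vehicle and 0.794 to 1.69 in EV combo. When replicate 3 of either EV group was left out, 0 of the 6 endothelial genes were called. T cell genes were called lower with the drugs in EV tumors for Cd3e alone of 7 (0 when replicate 2 of EV vehicle or replicate 1 of EV combo was left out, 4 without EV vehicle replicate 3), while EV vehicle replicate 2 held 51.3 TPM of these genes against 11.4 and 3.62 in the other EV vehicle libraries.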
